A study of Hordeum vulgare with 2 samples.

Results

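miR396 is a plant microRNA family, and the records described here are all degradome records listed under a small RNA name that holds miR396. A degradome library captures RNA fragments that end in a 5′ monophosphate, and a microRNA-guided cut shows up as reads starting at 1 position of the target. By name, 844 of the 40424 records of the XZ153 list and 304 of the 17485 records of the ZD9 list belong to miR396, on 539 and 177 genes. The material was shoot tissue of barley seedlings of 2 genotypes, ZD9 and XZ153, with 1 library each, in a series on Tibetan wild and cultivated barley. The seedlings grew hydroponically at 0.01 mM (low) or 1 mM (control) potassium, and the labels do not say which level, or which mixture, either library holds. With 1 library for each genotype no difference between them has a replicate check, and no test between them was made. The raw reads of the ZD9 list sum to 34935 over its records, in which isoforms can repeat a site. No read column was used for XZ153, and how deeply either library was sequenced was not worked out.

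In plants miR396 is best known for cutting transcripts of growth-regulating factors, plant transcription factors that promote cell proliferation in young leaves together with their GIF co-activators. In Arabidopsis and rice the site lies in the stretch that codes for the WRC domain, the DNA-binding part of these proteins. Rice and other grasses make a miR396 form with an extra G that pairs across this site, where the form without it leaves a target base unpaired. The deposited tables and the RefSeq gene table used here do not pair the barley gene IDs with names, so which of the genes below code for growth-regulating factors is not given. Likewise, no GIF co-activator could be looked up among the IDs. Where the sites lie in the genome, and whether in coding or untranslated sequence, is not given either, so positions are those of the transcript.

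The lists hold 20 miR396 names, and their sequences decide which sites each can pair with. The mature 5p-type names fall into 2 seed groups, shown because they differ by the extra G. A seed is bases 2 to 8 of a small RNA, in capitals. The prefix of a name gives the species of the reference microRNA (osa for rice, ata for goat grass, ath for Arabidopsis, csi for sweet orange), and the suffix gives changes at its ends or inside it. The seed with the extra G belongs to 11 names, which differ only at the 3′ end, and the seed without it to 4 names. The last sequence is named after a hairpin arm of a precursor and not after an annotated mature microRNA.
osa-miR396e-5p: uCCACAGGcuuucuugaacug
osa-miR396e-5p_1ss20TG: uCCACAGGcuuucuugaacgg
osa-miR396e-5p_R+1: uCCACAGGcuuucuugaacugu
ata-miR396a-5p_R+2_1ss21GT: uCCACAGGcuuucuugaacuuuu
osa-miR396d_R+3_1ss20GT: uCCACAGGcuuucuugaacuguuc
ata-miR396e-5p_R-1: uUCCACAGcuuucuugaacu
ath-miR396b-5p_R+1: uUCCACAGcuuucuugaacuuu
osa-miR396e-3p: aUGGUUCAagaaagcccauggaaa
osa-MIR396h-p3_2ss11TA17TC: gGGGAGGAggagguggcg

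The target side is nearly as uniform. The supported 5p-type sites of XZ153 (defined below), aligned on the cut, share a stretch of 20 bases, CGUUCAAGAAAGCNUGUGGA, in which N was A or C. Over both lists it was present in 56 sites on 12 genes, and 56 of these 56 were listed under a miR396 name. Because the stretch was read from miR396 sites, this share tests nothing about specificity. Of the miR396 records with values 575 had a site long enough to hold it and 537 had a shorter one, of which 0 matched part of it exactly over their whole length. The nearest other sites of sufficient length had 4 mismatches: 6 records on 1 gene, 6 of them under a miR396 name, with 0 supported and 0 in category 0. The sites that carry the results are shown with the deposited cut position in capitals, in the longest form listed for each gene. The deposited cut follows from the pairing and lies on base 11 of the stretch.
HORVU2Hr1G094470 and HORVU2Hr1G094460: gccguucaagaaAgccugugga
HORVU6Hr1G081210: gaaccguucaagaaAgccugugga
HORVU7Hr1G008680 and HORVU2Hr1G101770: caaccguucaagaaAgccugugga
HORVU4Hr1G003440: caucguucaagaaAgccugugga
HORVU4Hr1G010080: cguucaagaaAgcauguggaa

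Cleavage at this common site was listed with the strongest class of evidence on 7 genes of XZ153. The category of a record ranks its position among those of the transcript, with 0 for the sole maximum, 1 for a maximum shared with other positions, 2 for more reads than the average, 3 for several reads at or below the average, and 4 for 1 read. A record is called supported here at category 0 to 2 with a deposited p-value of at most 0.05. In XZ153 the common site was listed on 54 isoforms of 11 genes, with 24 in category 0, 3 in category 1, 1 in category 2, 0 in category 3 and 26 in category 4. All 28 records of categories 0 to 2 were supported, on 7 genes. Since the stretch was read from supported sites, their count describes it and tests nothing. Over all miR396 names XZ153 had 29 supported records on 8 genes (exact Poisson 95% interval for the genes 3.45 to 15.8), or 3.44% of 844 records (exact Clopper-Pearson 95% interval 2.31 to 4.90). Over all small RNAs of that list the supported share was 0.675% by record. By gene all miR396 names together were at the level of the list: 8 of 539 genes, or 1.48% (0.643 to 2.90), against 1.47% over all small RNAs. Mature names alone had 8 of 192 genes, or 4.17% (1.82 to 8.04), and the hairpin-arm name 0 of 360. In the count of records, isoforms repeat a cut. Records are therefore not independent, and intervals cover counting error only. The deposited p-values are not adjusted: with the Benjamini-Hochberg method over the 40424 records the lowest adjusted value of the CleaveLand p was 0.438, shared by miR396, and 0 records of the list passed 0.05.

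**Figure D1:**
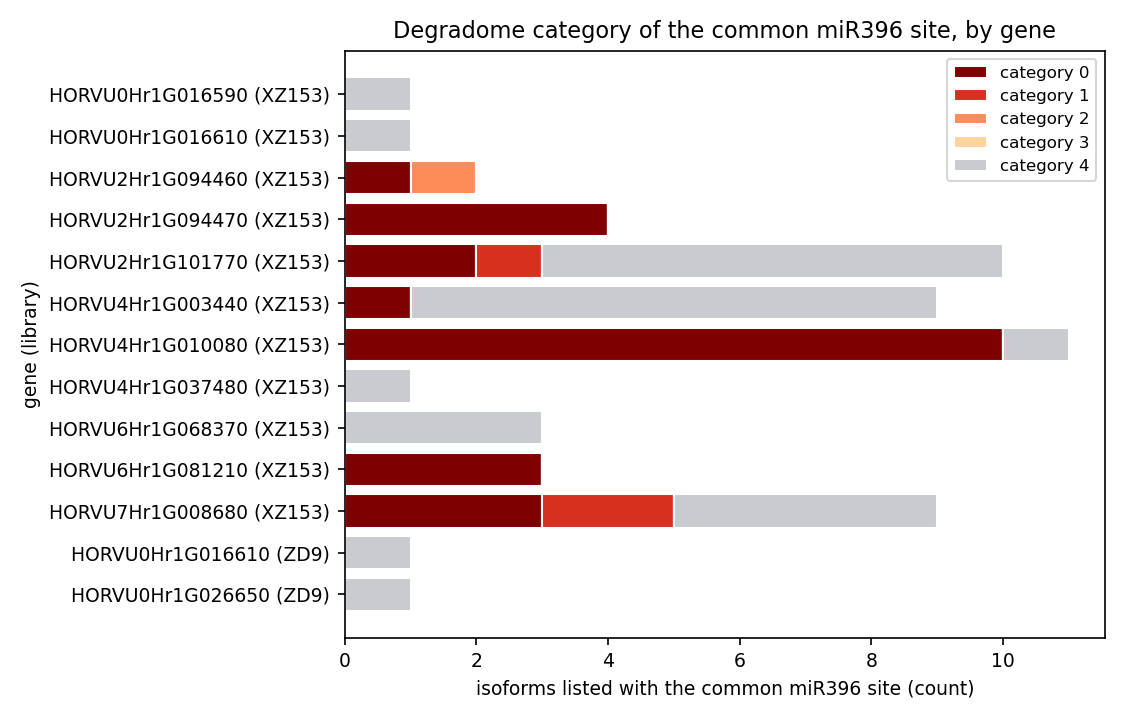
Isoforms (horizontal axis, count) on which the common miR396 site is listed, for each gene and library (vertical axis), coloured by degradome category (0, sole maximum; 4, 1 read). On HORVU2Hr1G094470 and HORVU6Hr1G081210 every listed isoform is category 0, and the 2 ZD9 bars are single-read sites.

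The genes differ in how far their isoforms share the evidence. HORVU2Hr1G094470 was category 0 on 4 of 4 listed isoforms, with p-values of 0.000455 on isoform 1 (position 503), 0.000227 on isoform 2 (position 597), 7.58e-05 on isoform 3 (position 500) and 0.000379 on isoform 4 (position 503). HORVU6Hr1G081210 was category 0 on 3 of 3, at positions 629 to 669, with p-values from 0.000227 to 0.000530. On these 2 genes, no isoform departs from the rest.

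HORVU4Hr1G010080 had the most category 0 isoforms, 10 of the 11 listed. Their positions ran from 447 to 1942 on the respective isoforms and their p-values from 0.000303 on isoform 11 to 0.00725 on isoform 10. Isoform 7 was the exception, a single read at position 497 with a p-value of 0.121, while isoform 8 has the same position in category 0 with a p-value of 0.00204. This gene alone gives 10 of the 29 supported records of XZ153, so the count of records leans on it more than the count of genes does.

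HORVU2Hr1G094460, whose listed site is letter for letter that of HORVU2Hr1G094470, was category 0 at position 537 of isoform 1 (p-value 0.000152) and category 2 at position 511 of isoform 2 (p-value 0.00325). How reads that fit both genes were assigned is not given, so the values of these 2 genes may not be independent. HORVU7Hr1G008680 was split: 3 of 9 isoforms were in category 0, 2 in category 1 and 4 in category 4. Its supported p-values ran from 0.00136 on isoform 3 to 0.00371 on isoform 8.

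HORVU2Hr1G101770 and HORVU4Hr1G003440 were mostly listed as single reads. On HORVU2Hr1G101770, isoforms 3 and 13 were category 0 with a p-value of 7.58e-05 each, isoform 4 was category 1 with 0.00339, and the other 7 of 10 isoforms were category 4. On HORVU4Hr1G003440, isoform 3 was category 0 at position 1188 with a p-value of 0.00499, and 8 of 9 isoforms were category 4. For both genes the category of an isoform therefore does not stand for the gene.

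Other small RNAs had up to 6 records on each of these genes. The whole XZ153 list holds 40424 records on 9317 genes. Small RNAs other than miR396 had 0 records on HORVU2Hr1G094470, HORVU2Hr1G094460 and HORVU4Hr1G003440 in XZ153, 1 on HORVU2Hr1G101770, 2 on HORVU6Hr1G081210, 5 on HORVU4Hr1G010080 and 6 on HORVU7Hr1G008680. All were category 4 except 1 category 0 record on HORVU7Hr1G008680 (p-value 0.0232), which meets the limits of a supported record. It lies on isoform 14, which has no listed miR396 site. Each position carries a single small RNA name in both lists, so a record does not tell which miR396 form made the cut.

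Allen scores did not order the isoforms with the common site by category. The Allen score adds up penalties for mismatches, so that 0 is a perfect match. It belongs to the 1 name listed at a position: on HORVU2Hr1G101770 the same stretch scored from 0 to 4. The scores therefore cannot show whether pairing strength orders the category. In XZ153, 11 records on 3 genes had a score of 0, all at the common site under osa-miR396e-5p_1ss20TG, which pairs throughout with ccguucaagaaAgccugugga. Of these 1 was category 0, 3 were category 1 and 7 were category 4. The name that scored worst at the site, ata-miR396a-5p_R+2_1ss21GT with 4, was category 0 on 2 of its 10 records there, isoforms 13 and 8 of HORVU7Hr1G008680, and category 4 on the other 8. Within the common site the p-value followed the category: category 0 ran from 7.58e-05 to 0.00725 and category 4 from 0.0128 to 0.208, ranges that do not overlap. The category enters the calculation of the p-value, so the second measure is not independent of the first. Among records of all miR396 names with a score of at most 2.5, 11 of 33 were category 0 in XZ153 (33.33%, 95% interval 18.0 to 51.8), where the share over all small RNAs was 13.8%. With the gene as the unit the share was 54.55% (6 of 11), against 16.5% (33 of 200) over all small RNAs. Of the 33 records 30 hold the common stretch, and no test was made. ZD9 had 2 such records and 0 in category 0, against 18.6% over all its small RNAs. Single-read sites of the common stretch passed 0.05 in 5 of 26 cases and are not called supported.

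**Figure D2:**
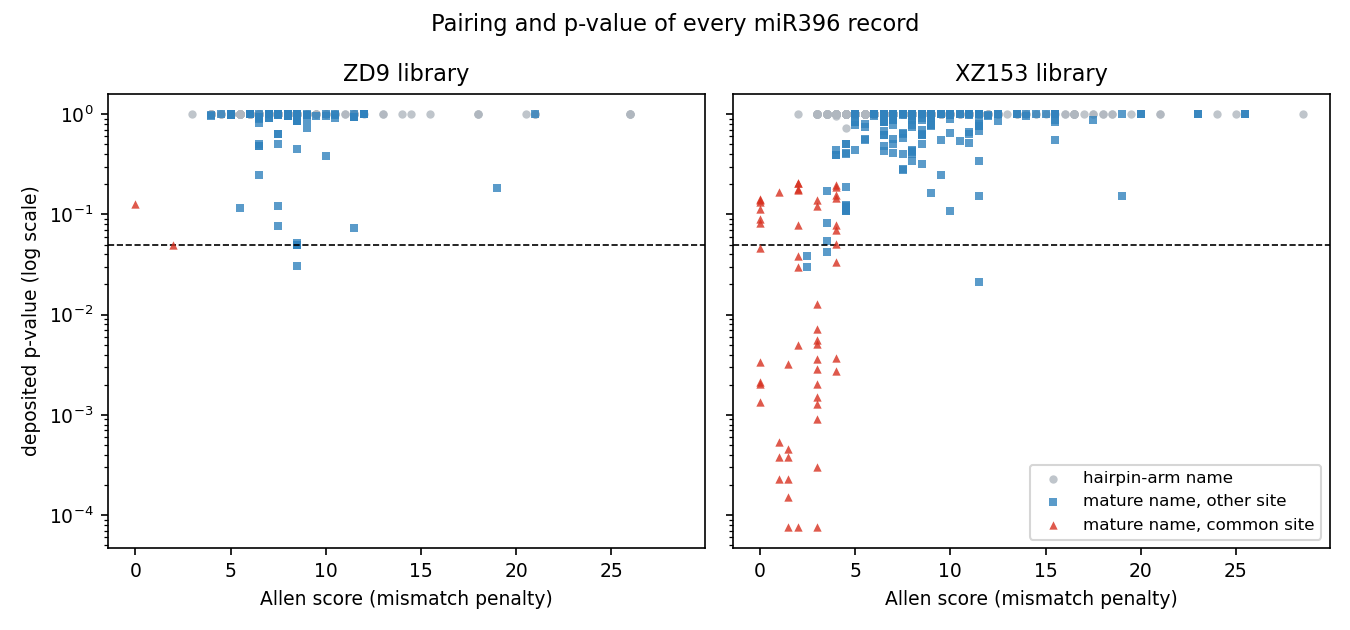
Allen score (horizontal axis) against the deposited p-value (vertical axis, log scale) of every miR396 record with values in ZD9 and XZ153; the dashed line is 0.05. In XZ153 the lowest p-values, 7.58e-05, belong to the common site at scores from 1.5 to 3, while in ZD9 it appears as 2 single reads.

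Both 5p-type seed groups were listed at the common site, and the base at the variable position goes with the name. The letter N of the stretch was C on 9 of the 11 XZ153 genes (42 records, 14 in category 0) and A on 2 genes (12 records, 10 in category 0). The A form is that of HORVU4Hr1G010080 and HORVU4Hr1G037480, so its category 0 count comes from 1 gene. With A, 12 of 12 records were listed under ata-miR396e-5p_R-1, the form without the extra G. With C, 2 of 42 were, both on HORVU2Hr1G101770. The deposited alignments of these 14 records leave a target base bulged out, with a score of 3 in each, and 11 were category 0. The 40 records under names with the extra G have no such bulge, and 13 were category 0. The counts by pairing form are confounded with gene and cannot be told apart from it.

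Under the 5p-type seeds XZ153 lists 249 records on 158 genes without the common stretch. None of these is supported, which the way the stretch was chosen fixes (0 of 249). In category 0 were 4 (1.61%, 95% interval 0.439 to 4.06). Category 0 made up 1.49% of all records of that list. At the common site the share was 44.4% (30.9 to 58.6). This is a description with no test, for the reason given above. Of the 249, 9 records on 5 genes had an Allen score of at most 4, the highest score at the common site. Among them 1 was in category 0 and 7 were in category 4. Their median score was 3.5, against 2 at the common site in XZ153.

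**Figure D3:**
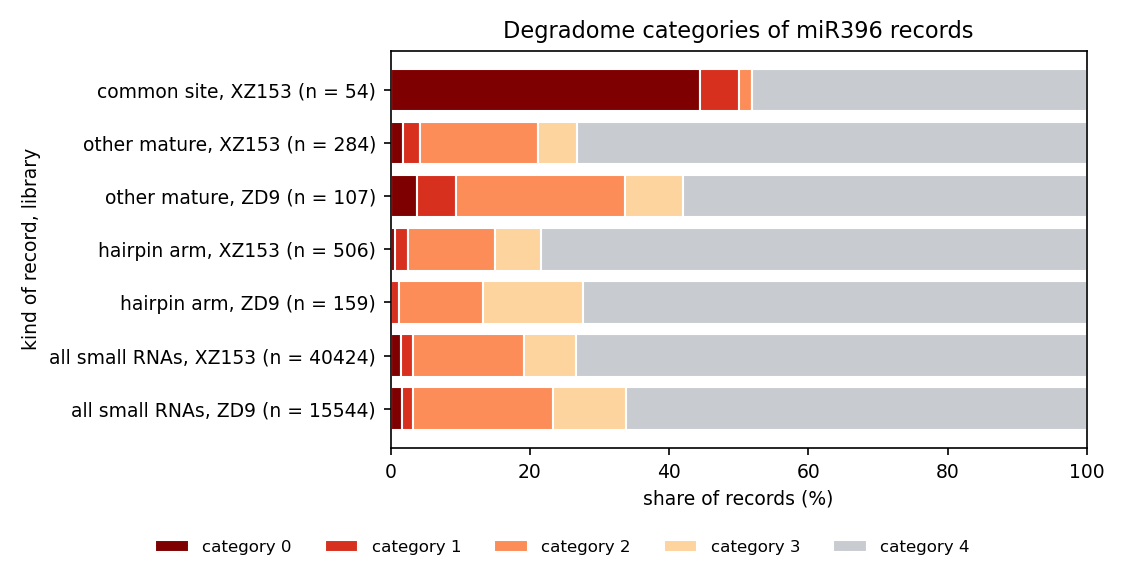
Share of records (horizontal axis, %) in each degradome category for the common site, other mature miR396 records, the hairpin-arm name and all small RNAs of each list, with the number of records (vertical axis). The dark category 0 part is 44.4% for the common site in XZ153 and 1.49% for all small RNAs there.

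Several well-paired sites had no support. HORVU0Hr1G016590, HORVU0Hr1G016610 and HORVU6Hr1G068370 carry the common site with Allen scores from 0 to 4 and were listed only as single reads in XZ153, with lowest p-values of 0.0380, 0.0463 and 0.0297. HORVU4Hr1G037480 was a single read at position 481 with a p-value of 0.140. HORVU6Hr1G084590 has another site, aaaggucgaggaAgcuguggaa, that pairs with ath-miR396b-5p_R+1 at a score of 2.5, and was category 4 on 2 of 2 isoforms with p-values of 0.0297 and 0.0380. HORVU5Hr1G014300 was category 0 on isoform 6 with a score of 3.5, yet its p-value was 0.172 and its minimum free energy ratio, the stability relative to a perfect site, 0.660.

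In ZD9 the common site was listed only in 2 records of 1 read each. The ZD9 records with values end at transcript HORVU2Hr1G036110.5, and 9 of the 12 genes with the site lie after it, among them all 7 supported ones. Of the 3 genes before the end, HORVU0Hr1G016610 held 1 raw read at position 274 of isoform 3 (p-value 0.0492) and HORVU0Hr1G026650 held 1 raw read at position 851 (p-value 0.126). HORVU0Hr1G016590 has no ZD9 record of the site. In XZ153 the first gene was listed on isoform 1 at position 571, also as a single read, and HORVU0Hr1G026650 was not listed with the site. ZD9 has 36 further miR396 records without values, of which 36 recur in the XZ153 list and 0 lie on genes with the common site. Over the ID range both lists cover, XZ153 had 0 supported miR396 records of 165, where the background was 0.91% by record and 1.77% by gene. The 7 supported genes therefore cannot be compared between ZD9 and XZ153.

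The only supported miR396 gene of ZD9 was HORVU1Hr1G071890, at a site poorly paired by its Allen score. Its 10 listed isoforms held 1 to 4 raw reads each at gaguucaagauUgccugucugga, which resembles the common site but breaks the pairing with osa-miR396e-5p_1ss21GT, for an Allen score of 8.5. The minimum free energy ratio of this site was 0.784, the highest among ZD9 mature records with values that lack the common stretch. Isoform 18 was category 0 with 3 reads and a p-value of 0.0304. Isoforms 2, 19 and 17 were category 1 with 2 reads and p-values of 0.0491, 0.0493 and 0.0497, just inside the limit, and isoform 6, category 1 with 3 reads, was just outside at 0.0519. Isoform 7 held the most reads, 4, but was category 2 with a p-value of 0.445, and isoforms 4, 5, 8 and 10 were single reads with p-values from 0.847 to 0.866. These 4 supported records are 1.49% of the 268 miR396 records of ZD9 with values, where the background over all small RNAs was 0.695%. All 4 lie on 1 gene, and by gene the miR396 share was 1 of 153, or 0.654% (0.0165 to 3.59), against 0.947% over all small RNAs. Mature names alone had 1 of 59 genes, or 1.69% (0.0429 to 9.09), and the hairpin-arm name 0 of 99. XZ153 lists the site on 2 isoforms as single reads, with p-values of 0.614 and 0.634. With the Benjamini-Hochberg method over the ZD9 list the lowest adjusted value of any miR396 record was 1.

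The 3p names, from the opposite arm of the precursor, supplied 1 supported gene. HORVU2Hr1G091220 was category 0 at position 3531 of isoform 2 in XZ153, with a p-value of 0.0211, under osa-miR396e-3p. Its site, cuuccgugggcguuuCgugggcagg, has an Allen score of 11.5, and isoform 1 was category 4 with a p-value of 0.674. In all, 3p mature names had 35 records in XZ153 and 22 in ZD9 with values, with 1 category 0 record in each. The ZD9 one lies on HORVU1Hr1G054100, at 2 reads and a p-value of 0.0772. The lowest Allen score of a mature 3p record was 5.5 in XZ153 and 5 in ZD9, so no site of a mature 3p name was well paired.

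The remaining category 0 records missed the p-value limit. ZD9 had 4 category 0 miR396 records among 268 with values, where category 0 made up 1.7% of the list. Apart from the 2 described above these were HORVU1Hr1G053190 with 2 reads and a p-value of 0.117, and HORVU1Hr1G061010 with 3 reads and a p-value of 0.379. In XZ153 HORVU3Hr1G084420, HORVU5Hr1G078760 and HORVU7Hr1G087810 had p-values of 0.655, 0.574 and 0.688, all under the shortened name osa-miR396e-5p_R-3. That name, 18 bases long, had the most mature records, 109 in XZ153, of which 0 were supported.

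The hairpin-arm name made up most miR396 records and none of the supported ones. osa-MIR396h-p3_2ss11TA17TC accounted for 506 of 844 records in XZ153 (60.0%) and 159 of 268 with values in ZD9 (59.3%). It has G at 13 of its 18 bases, and C and U made up 77.2% of the bases of its sites in XZ153, against 38.1% for sites of mature miR396 names. The run CCUCC, read on the transcript strand, was in 57.1% of its XZ153 sites and in 5.24% of all listed sites there; it is the complement of GGAGG, which the name's sequence contains. In XZ153 3 of its records were category 0 (0.593%, 95% interval 0.122 to 1.72), on HORVU4Hr1G006320, HORVU4Hr1G055150 and HORVU6Hr1G084860, with p-values of 0.998 to 1. Its lowest p-value was 0.722 in XZ153 and 0.999 in ZD9. The best-paired record of the name, on HORVU7Hr1G109960, with an Allen score of 2 at cgucgccuCcuccucccg, was a single read with a p-value of 0.995. At a score of 3 the name had 10 records on 7 genes in XZ153, of which 8 were single reads, among them those on HORVU1Hr1G057970 and HORVU2Hr1G084750, and 2 were category 2. The lowest p-value of the 10 was 0.994.

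The highest raw read counts of ZD9 lay at poorly paired sites, though typical counts were not higher there. Of the 268 miR396 records 179 held 1 read (66.8%), and over the whole ZD9 list the share was 66.2%. The highest count was 52 reads on HORVU1Hr1G030000 at agaaguucaagauUuugccugucga, category 2 in both libraries, with an Allen score of 10.5 and p-values of 0.906 in ZD9 and 0.539 in XZ153. HORVU1Hr1G088900 followed with 27 and 25 reads on 2 isoforms under osa-miR396e-3p_L-3, with p-values near 0.99. HORVU1Hr1G088920 with 27 and 13 reads and HORVU0Hr1G003270 with 18 were under the hairpin-arm name, at a p-value of 1. HORVU2Hr1G030880 held 11 reads at an Allen score of 12. All ZD9 p-values of these 5 genes were 0.906 or higher. The 15 records with an Allen score of at most 4 had a median of 2 reads and a maximum of 7, 40% of them held 1 read, and 0 were category 0. Of these 15, 8 are isoforms of the single gene HORVU0Hr1G003890, named after its values were seen. They held 2 to 7 reads each, so the 6 records with 1 read lie on other genes. The median of 2, the maximum of 7 and the 40% therefore rest on this gene. The 156 records with scores from 4.5 to 8 and the 97 above 8 had a median of 1 read, with 68.6% and 68.0% at 1 read.

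**Figure D4:**
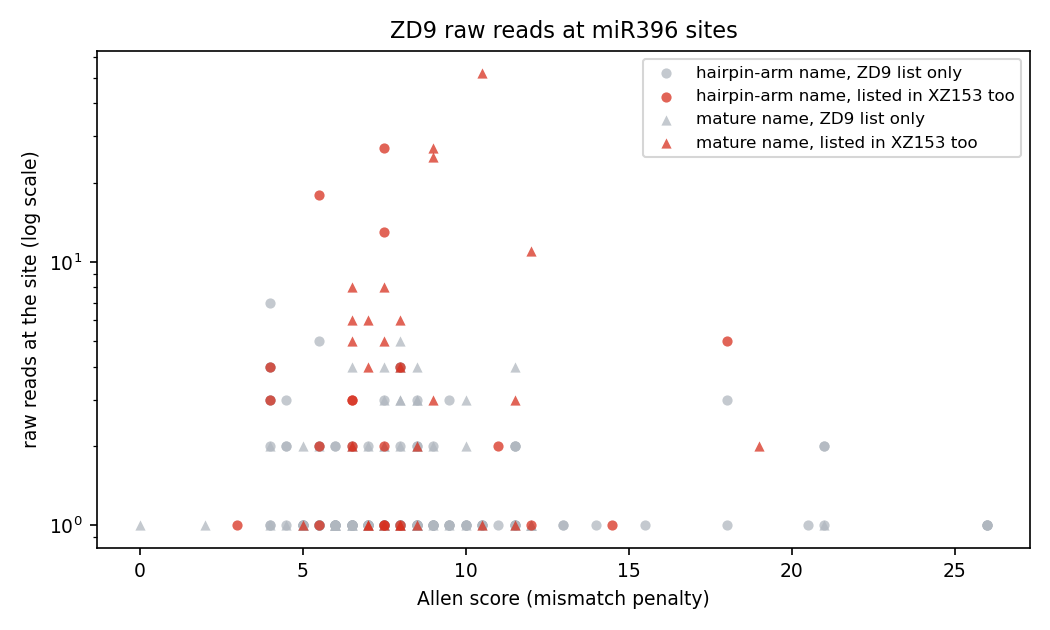
Allen score (horizontal axis) against raw reads (vertical axis, log scale) of the ZD9 miR396 records with values; triangles are mature names, circles the hairpin arm, and red marks records also listed in XZ153. The highest point, 52 reads at a score of 10.5, is listed in both, and records with 1 read are mostly grey.

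Recurrence in XZ153 was more frequent at higher ZD9 read counts, for miR396 as for the whole list. Over the ID range that both lists cover, 47 records of the same name, transcript and position were in both, which is 17.5% of the 268 ZD9 records (95% interval 13.2 to 22.6) and 28.5% of the 165 XZ153 records (21.7 to 36.0). Over all small RNAs these shares were 18.3% and 34.0%. Of miR396 sites with 1 read in ZD9, 16 of 179 recurred (8.94%, 5.20 to 14.1), and of those with 6 reads or more, 12 of 13 (92.3%, 64.0 to 99.8). Over all small RNAs these shares were 9.87% and 74.4%. Of the 47 recurring miR396 sites, 16 had 1 read and 7 had 2. The category was the same in both libraries for 23 of the 47, and over all small RNAs for 1428 of 2842. By kind, 27 of 109 mature and 20 of 159 hairpin-arm records of ZD9 recurred. None of the 47 was supported in XZ153, and in ZD9 1 of them was, isoform 2 of HORVU1Hr1G071890.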

How the data were processed

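Both tables are CleaveLand output (per the path column of the deposited files), with 1 line for each small RNA, transcript and position. CleaveLand predicts sites by pairing and counts degradome reads at each predicted cut. Neither its version nor the aligner, transcripts or build is given in the sources used here. Per the file headers, the ZD9 raw read counts are reads at the site, and a deposited RPM column was not used. The deposited p-value, the minimum free energy ratio and the Allen score are the authors' values.

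Records were selected by name, isoforms were merged by ID, and sites were read from the deposited alignments (Python 3.11.15, pandas 2.3.3, scipy 1.17.1). The flags were tested on 2000 simulated records and 2000 were recovered. A record is supported at category 0 to 2 with p at most 0.05. Intervals are 95% exact ones. The shared range ends at HORVU2Hr1G036110.5. Emptied lines, 3 in ZD9 and 20 in XZ153, are not analysed here.

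The members, lists and limits were chosen with earlier results of these data known. Genes were named by rule: supported in either library, otherwise in category 0, the 8 lowest Allen scores and the 5 highest ZD9 counts among unsupported genes, ties by ID. Genes with the common stretch outside that rule were added after their values were seen.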

Additional observations from a re-analysis of the deposited data

How the results depend on the processing

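Among 44 alternative settings, 15 moved a value by over 1.5 times (counts) or outside its interval (the share) and 29 did not. The 8 alternatives without a category limit or with Benjamini-Hochberg adjustment were chosen after seeing the data. In XZ153 the 8 supported genes and 29 records became 0 and 0 in the shared ID range and 0 and 0 after adjustment, and the genes became 13 when any category counted. In ZD9 the 1 gene and 4 records became 0 and 0 at p at most 0.01, at an Allen score of at most 4 and after adjustment, category 0 alone left 1 record, and any category gave 2 genes. At a minimum free energy ratio of at least 0.75 they stayed at 1 and 4. The category 0 share of well-paired miR396 records in XZ153 (Allen score at most 2.5) was 33.33% (11 of 33) and by gene 54.55% (6 of 11). At an Allen score of at most 4 it was 22.94% (25 of 109) by record. Sites in both libraries rose from 47 to 95 when 14 common bases on a gene sufficed. No paired analysis was possible because each genotype has 1 library. Sequencing depth was not worked out, which limits every absence.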
